A study of Homo sapiens with 4 samples.

Results

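The axon guidance ligands and receptors of IMR-32 cells were taken as every gene whose symbol belongs to the semaphorin, plexin, neuropilin, Eph receptor, ephrin, SLIT, ROBO, netrin or UNC5/DCC families, with antisense genes left out. Of 60612 gene IDs in the count table, 69 symbols matched, and 68 of them held at least 10 counts summed over the 4 libraries. ROBO4, with 8 counts, was left out. The 68 members comprised 35 ligands and 33 receptors. IMR-32 is an established human neuroblastoma line with amplified MYCN. All cells carried a stably transduced, doxycycline-inducible hairpin and received doxycycline at 1 µg/mL for 48 h. In shControl (2 libraries, genotype given as WT) the hairpin was a control, and in shNeuroD1 (2 libraries, genotype given as NeuroD1 knockdown) it was directed against NEUROD1, a neuronal basic helix-loop-helix transcription factor. The study used more than 1 NEUROD1 hairpin. The sample titles match the names of its hairpins, while its own table headers for this comparison name 1 of them with replicate numbers, so the number of hairpins behind shNeuroD1 is not settled. Loss of NEUROD1 and any other effect of a hairpin cannot be told apart. Whether the libraries within a group came from separate cultures is not given, so p-values measure only the spread between these samples, which may be technical.

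Axon guidance genes encode secreted or membrane-bound cues and the receptors that read them at the growth cone. Semaphorins act through plexins, with neuropilins as co-receptors for the secreted class 3 members. Ephrins act on Eph receptors between touching cells, SLITs act on ROBO receptors, and netrins act on DCC, which mediates attraction, and on UNC5 receptors, which mediate repulsion. In the sympathoadrenal lineage from which neuroblastoma arises, several of these families steer migrating neural crest cells and growing sympathetic axons.

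The libraries held between 14665210 and 16482463 counts. NEUROD1 had 6174 and 6582 counts in shControl, against 969 and 886 in shNeuroD1, and its level fell to 14.6% of control (log2 fold change -2.77, edgeR adjusted p 8.6e-29). All 14 markers of adrenergic neuroblastoma cells averaged at least 1 CPM, the unit of counts scaled to library size, with summed levels of 4218 and 4316 CPM in shControl and 4029 and 4052 CPM in shNeuroD1. Summed markers of fibroblasts (7 genes) ranged from 87.9 to 92.3 CPM, of endothelial cells (4 genes) from 1.38 to 1.9 CPM and of leukocytes (4 genes, CD3E at 0 throughout) from 0.441 to 0.920 CPM. The 5 Schwann cell markers summed to 5.42 and 5.43 CPM in shControl and 8.74 and 10.1 CPM in shNeuroD1. Single markers moved in opposite directions within the other sums. COL1A1 fell (log2 fold change -0.94), while PDGFRB, LUM, THY1 and COL3A1 rose. CDH5 fell from 18 and 17 to 1 and 0 counts, while VWF rose from 7 and 5 to 23 and 20. The part of these genes in the differences below was not tested.

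Guidance genes were more often higher than lower in shNeuroD1. Levels were compared with the quasi-likelihood test of edgeR over all 17537 genes that passed a filter on low counts. A call needed an adjusted p below 0.05 together with a change of more than 1 on the log2 scale in either direction. Of the 60 members tested, 14 rose (23.3%), where 8.79% of all genes tested did, and 2 fell (3.33%), where 5.14% did. The 14 include SEMA3D, which passed the filter only through shNeuroD1. EFNA4 and NTN1 passed it in the same way and UNC5D only through shControl, and none of these was called. By the adjusted p alone, 27 members rose (45.0%) beside 26.8% of all genes, 11 fell (18.3%) beside 28.2%, and 22 did not pass. The median log2 fold change of the tested members was 0.25, and that of all genes was 0.01. Among ligands 8 of 32 tested rose and 1 fell past both thresholds. Among receptors 6 of 28 rose and 1 fell.

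**Figure D1:**
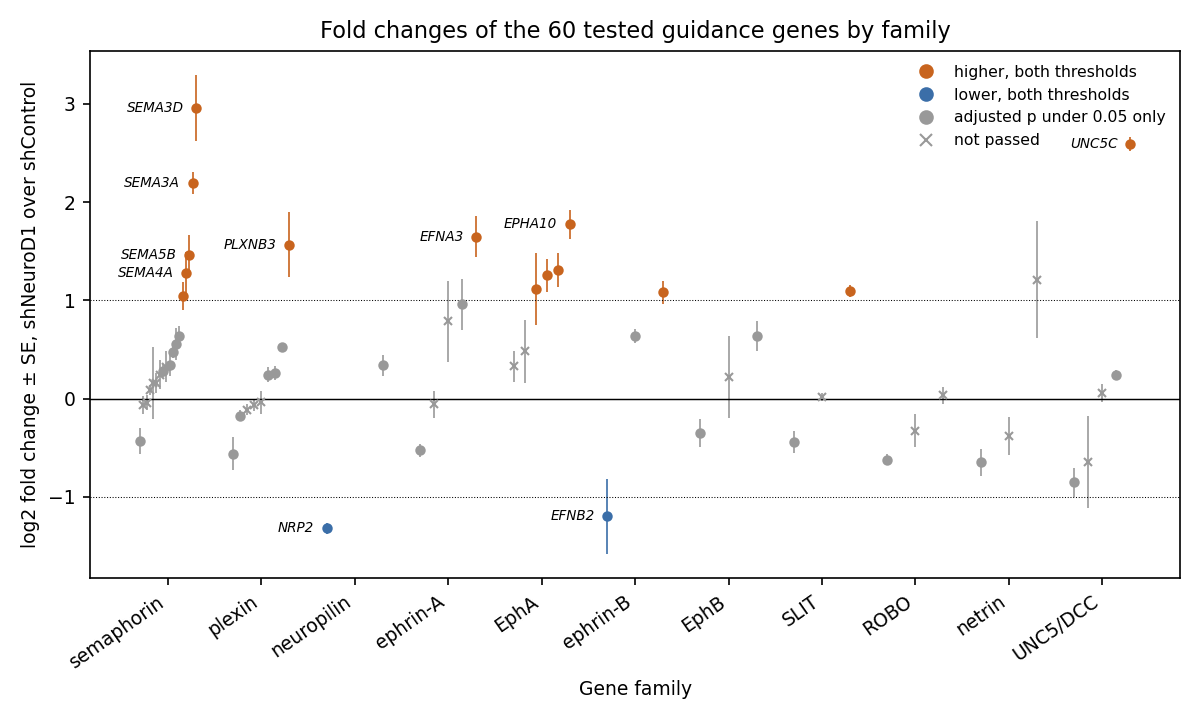
Log2 fold change with its standard error (SE) of the 60 tested members by family, shNeuroD1 over shControl, with dotted lines at 1 and -1. The 14 orange points lie above 1 and the 2 blue points, NRP2 and EFNB2, lie below -1.

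Per length, guidance receptors and ligands differed over several orders of magnitude. CPM divided by the length in kilobases of the union of annotated exons (RPKM) was used as the level per length. In shControl 38 members reached 1 RPKM, and in shNeuroD1 45 did. The highest level was that of UNC5B, a netrin receptor, at 25.6 RPKM in shControl and 30.2 RPKM in shNeuroD1. SEMA6D, a transmembrane semaphorin, followed at 19.1 RPKM, then the plexins PLXNB2 at 18.5 RPKM and PLXNA1 at 13.1 RPKM, and SLIT3 at 13 RPKM. UNC5B rose slightly (log2 fold change 0.24, SE 0.0462, edgeR adjusted p 4.8e-05). PLXNA1 rose from 143.2 ± 6.53 to 205.4 ± 2.09 CPM (SD, n = 2 each), a log2 fold change of 0.52. SEMA6D and PLXNB2 did not pass the test (adjusted p 0.116 and 0.0842). Of the called members, 6 stayed under 1 RPKM in both groups, so their changes occurred at low levels.

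**Figure D2:**
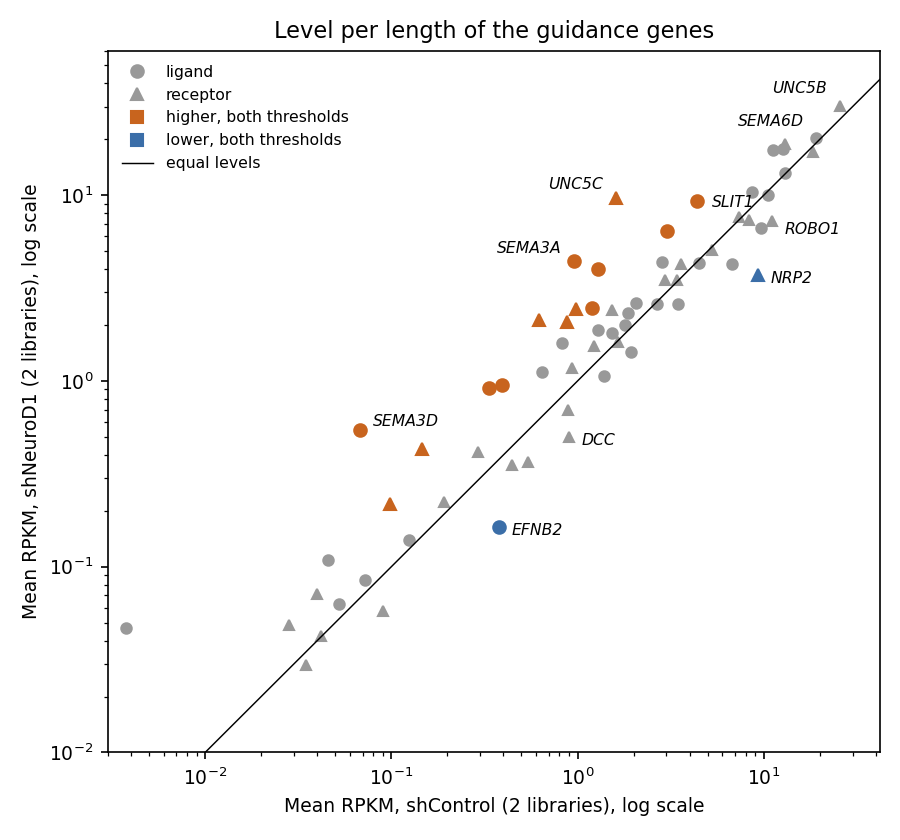
Mean RPKM of each member in shControl (x axis) and shNeuroD1 (y axis), both on log scales, 2 libraries a group. Circles are ligands, triangles are receptors, and EPHA4, at 0 counts in shNeuroD1, is not drawn. UNC5C moved from 1.61 to 9.69 RPKM, and NRP2 from 9.30 to 3.72 RPKM.

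Class 3 semaphorins, the secreted ligands of neuropilin and plexin complexes, held the largest rises among the ligands. SEMA3A (ENSG00000075213, GRCh38 chromosome 7, 83955777 to 84492724), the prototype repellent of sensory and sympathetic axons, had 108 and 169 counts in shControl, against 614 and 648 in shNeuroD1. Both shNeuroD1 libraries lay far above both shControl libraries. The level rose from 8.98 ± 2.34 to 41.5 ± 1.55 CPM (SD, n = 2 each) (log2 fold change 2.20, SE 0.112, edgeR adjusted p 2.6e-17). SEMA3D had 6 and 11 counts in shControl, against 64 and 69 in shNeuroD1 (log2 fold change 2.96, SE 0.338, edgeR adjusted p 5.9e-09). It passed the count filter only through shNeuroD1, where it is high, and its adjusted p in a fit with no filter was 2.1e-04. SEMA3B, a semaphorin known as a candidate tumour suppressor, had 109 and 103 counts and then 201 and 235, and rose with a log2 fold change of 1.05 (adjusted p 2.0e-07). That value was close to the threshold of 1, at 0.94 without shControl replicate 2 and 0.93 without shNeuroD1 replicate 2. In limma on FPKM its adjusted p was 0.171 and 0.208 with pseudocounts of 1 and 0.1. SEMA3F rose by less, from 6.18 to 9.10 CPM, and SEMA3G at 0.24 did not pass the test. In all, 3 of the 5 tested class 3 members rose past both thresholds and none fell past either, while SEMA3C and SEMA3E were under the count filter.

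Of the membrane-bound semaphorins, SEMA4A and SEMA5B rose past both thresholds. SEMA4A, which also acts in immune cells, had 43 and 39 counts in shControl, against 106 and 92 in shNeuroD1 (log2 fold change 1.28). SEMA5B had 41 and 46 counts and then 108 and 131 (log2 fold change 1.46). In class 4, 5 of 6 members rose by the adjusted p alone. SEMA4F was the most abundant of these, at 79.2 ± 5.67 CPM in shControl and 110.1 ± 1.33 CPM in shNeuroD1 (SD, n = 2 each). SEMA4G, whose exons overlap those of MRPL43 on the other strand over 22.3% of their length, went from 14.9 to 23.1 CPM, and its reads may include reads of that gene. In class 6, 1 of 4 tested members passed, SEMA6B, which fell from 15.4 to 11.4 CPM (log2 fold change -0.43).

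The semaphorin receptors moved in both directions. NRP2 (ENSG00000118257, chromosome 2, 205681990 to 205798133), the co-receptor preferred by SEMA3F and by lymphatic growth factors, had 1869 and 2089 counts in shControl, against 789 and 785 in shNeuroD1. Every shNeuroD1 value lay below every shControl value. The level fell from 129.2 ± 3.36 to 51.7 ± 0.221 CPM (SD, n = 2 each), or 40.0% of control (log2 fold change -1.32, SE 0.0554, edgeR adjusted p 1.8e-19). NRP1, the co-receptor preferred by SEMA3A, moved the other way, from 208 and 222 counts to 261 and 279 (log2 fold change 0.34, adjusted p 0.0112). The count ratio of NRP2 to NRP1, which no scaling of libraries affects, was 8.99 and 9.41 in shControl, compared with 3.02 and 2.81 in shNeuroD1. Of 9 plexins tested, 4 rose by the adjusted p alone and 2 fell, with a median log2 fold change of -0.04. PLXNB3 passed both thresholds from 18 and 13 counts to 41 and 51 (log2 fold change 1.57), and without shControl replicate 2 its adjusted p was 0.0505. PLXNB3 shares 20.4% of its exon length with SRPK3 on the same strand. PLXNA4, a partner of neuropilins in SEMA3A reception, fell from 8.85 to 6.01 CPM and PLXND1 from 81.4 to 72.0 CPM.

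Among the tested receptors of these families, the netrin receptor UNC5C changed the most. UNC5C (ENSG00000182168, chromosome 4, 95162504 to 95549206), which mediates repulsion by netrins, had 251 and 275 counts in shControl, against 1602 and 1551 in shNeuroD1. The level rose 6.03-fold, from 17.2 ± 0.204 to 103.6 ± 2.44 CPM (SD, n = 2 each) (log2 fold change 2.59, SE 0.0700, edgeR adjusted p 1.9e-24). The spread within either group was small beside this difference. An antisense gene, AC106881.1, shares 78 exon bases with UNC5C and went from 42 and 29 to 219 and 225 counts. Without a stated use of strand in counting, reads in the shared stretch cannot be told apart. DCC, the receptor for netrin attraction, had 167 and 197 counts in shControl, against 97 and 103 in shNeuroD1, and fell with a log2 fold change of -0.85 (SE 0.147, adjusted p 9.4e-06). The count ratio of UNC5C to DCC was 1.50 and 1.40 in shControl, compared with 16.5 and 15.1 in shNeuroD1. UNC5A did not pass the test (log2 fold change 0.06), nor did UNC5D, at 9 to 15 counts a library. Of the ligands, NTN3 fell from 202 and 206 to 119 and 140 counts (log2 fold change -0.65). NTN4 (91 and 86 to 65 and 70 counts) and NTN1 (3 and 6 to 10 and 11 counts) did not pass.

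**Figure D3:**
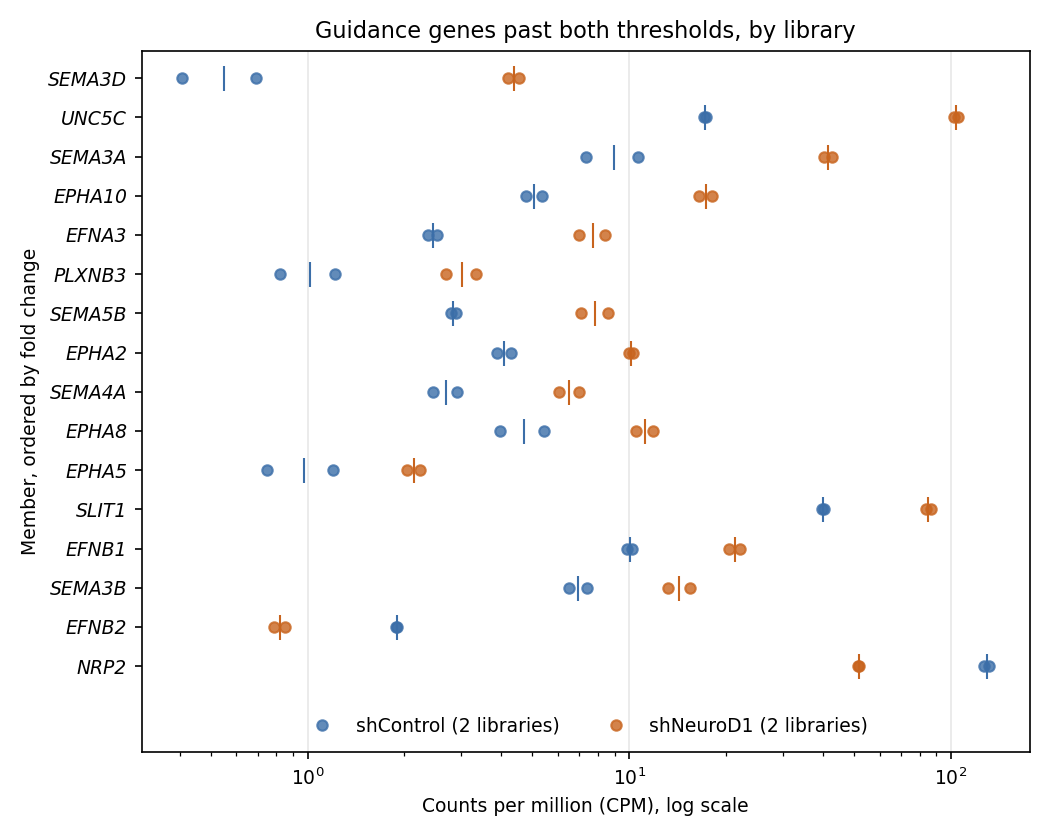
CPM on a log scale in each library of the 16 members past both thresholds, ordered by fold change. Points are single libraries and vertical ticks are group means, with 2 libraries a group. The shNeuroD1 points of 14 members lie to the right of the shControl points, and those of NRP2 and EFNB2 lie to the left.

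Eph receptors of class A were mostly higher in shNeuroD1. Of 6 EphA genes tested, 4 rose past both thresholds, none fell past either, and the median log2 fold change was 1.19. EPHA10, a member whose kinase domain is thought to be inactive, had 79 and 76 counts in shControl, against 276 and 251 in shNeuroD1 (log2 fold change 1.77, SE 0.144, edgeR adjusted p 3.3e-12). EPHA2, a receptor widely studied in epithelial tumours, had 57 and 68 counts and then 156 and 152 (log2 fold change 1.31). EPHA8 had 80 and 63 counts and then 180 and 160 (log2 fold change 1.25). These 3 genes went from between 0.622 and 0.980 RPKM to between 2.08 and 2.43 RPKM. EPHA5 had 11 and 19 counts and then 34 and 31 (log2 fold change 1.12, adjusted p 0.0102). Its call rested on single libraries, with an adjusted p of 0.106 and a log2 fold change of 0.82 without shControl replicate 1, and an adjusted p of 0.0678 without shNeuroD1 replicate 1. EPHA6 and EPHA7 did not pass the test. EPHA1, EPHA3 and EPHA4 were under the count filter, with EPHA4 at 7 and 5 counts in shControl and 0 in both shNeuroD1 libraries. Among EphB receptors, EPHB3 rose from 6.96 to 10.9 CPM (log2 fold change 0.64). EPHB2 fell by 0.35 on the log2 scale (adjusted p 0.0331), and this call was lost without any 1 of the 4 libraries, with adjusted p between 0.0559 (shNeuroD1 replicate 1 left out) and 0.161 (shNeuroD1 replicate 2 left out).

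Ephrins, the ligands of these receptors, split by gene. Of the exon length of EFNA3, 44.7% is shared with AL691442.1 on the same strand, a gene at 0 counts in every library. EFNA3 had 35 and 40 counts in shControl, against 106 and 128 in shNeuroD1 (log2 fold change 1.65, SE 0.207, edgeR adjusted p 4.1e-08). EFNA1 rose by less (33 and 31 to 70 and 54 counts, log2 fold change 0.96), and EFNA4, at 10 to 22 counts, did not pass. EFNA5, the most counted ephrin-A, fell from 55.1 ± 0.331 to 38.2 ± 1.88 CPM (SD, n = 2 each, log2 fold change -0.53). The 3 ephrin-B genes, whose products are transmembrane ligands, all passed the test. EFNB1 rose from 145 and 162 to 337 and 310 counts (log2 fold change 1.08), and EFNB3 from 503 and 606 to 882 and 837 counts (log2 fold change 0.64). EFNB2 shares 26.2% of its exon length with AL138689.2, which is on the opposite strand and had 0 to 2 counts a library. EFNB2 fell from 28 and 30 to 12 and 13 counts (log2 fold change -1.20, SE 0.381, edgeR adjusted p 0.00839). Its adjusted p was 0.144 in DESeq2 and between 0.0594 and 0.0608 without shControl replicate 1, shControl replicate 2 or shNeuroD1 replicate 1. The count ratio of EFNB1 to EFNB2 was 5.18 and 5.40 in shControl, compared with 28.1 and 23.9 in shNeuroD1.

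SLIT ligands each behaved differently. SLIT1, largely a ligand of the nervous system, had 592 and 629 counts in shControl, against 1321 and 1269 in shNeuroD1. Its level rose from 39.9 ± 0.392 to 85.1 ± 2.47 CPM (SD, n = 2 each) (log2 fold change 1.09, SE 0.0619, edgeR adjusted p 4.3e-16). SLIT2 fell from 263 and 317 to 212 and 213 counts (log2 fold change -0.44, adjusted p 0.00123). The count ratio of SLIT1 to SLIT2 was 2.25 and 1.98 in shControl, compared with 6.23 and 5.96 in shNeuroD1. SLIT3, the most counted of the 3, had 2747 and 2946 counts and then 2930 and 2792, and did not pass (log2 fold change 0.02, SE 0.0453, adjusted p 0.792). Among the receptors, ROBO1 (chromosome 3, 78597240 to 79767815) fell from 1721 and 1990 to 1161 and 1236 counts (log2 fold change -0.62, SE 0.0546, adjusted p 2.0e-11). ROBO2 and ROBO3 did not pass.

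For some members the listed start of transcription also differed between the groups. The deposited transcript tables give FPKM, a fragment count scaled to transcript length and library size, for each transcript start. These tables are incomplete. They list no start on the gene's own strand for 18 members, SLIT1 among them, and SEMA3A was listed in 1 shControl library alone despite its counts. Of the members, 17 had at least 2 starts on their own strand and 1 FPKM summed over starts in every library. The share of the main start differed by at least 30 percentage points, with groups apart, in 3 of these 17, where 5.99% of 6564 genes did so. The comparison has 2 libraries a group, and no test was made.

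In SLIT3, a start at 168845295 on chromosome 5, inside the gene and 463 bases from the nearest annotated start, was at 11.6 and 11.9 FPKM in shControl and 2.97 and 4.91 FPKM in shNeuroD1. The upstream start at 169301139, within 10 bases of an annotated protein-coding start, was at 1.35 and 1.20 FPKM in shControl and 10.8 and 8.65 FPKM in shNeuroD1. The internal start thus held 89.6% and 90.8% of the start FPKM in shControl and 21.5% and 36.2% in shNeuroD1, with gene counts close in all 4 libraries. In ROBO1, a start at 78670540, which is that of an annotated transcript with a retained intron, was at 12.7 and 9.08 FPKM in shControl and 0.0964 and 0.162 FPKM in shNeuroD1. The protein-coding start of ROBO1 at 79019497 was at 9.29 and 4.41 FPKM and then 6.89 and 5.89 FPKM, so its groups overlapped. SEMA4D differed at lower levels, its main start holding 30.2% and 65.7% in shControl and 98.7% and 83.1% in shNeuroD1. That start was at 1.325 and 1.694 FPKM and then 3.296 and 0.978 FPKM, so its groups overlapped. Another start of SEMA4D, at 89455953, was at 1.876 and 0.7154 FPKM in shControl and 0.0035 and 0.015 FPKM in shNeuroD1. UNC5C was listed with 1 start, at 0.321 and 0.614 FPKM in shControl and 8.45 and 6.23 FPKM in shNeuroD1, in the same direction as its counts. The tables did not always follow the counts. Of 23 members past the adjusted p whose FPKM summed over starts was also fitted, 4 had the opposite sign in FPKM (SLIT2, SEMA6B, SEMA4C and SEMA4B). The main start of SEMA4C went from 6.52 and 7.15 to 3.86 and 3.91 FPKM, while its counts rose (log2 fold change 0.28).

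**Figure D4:**
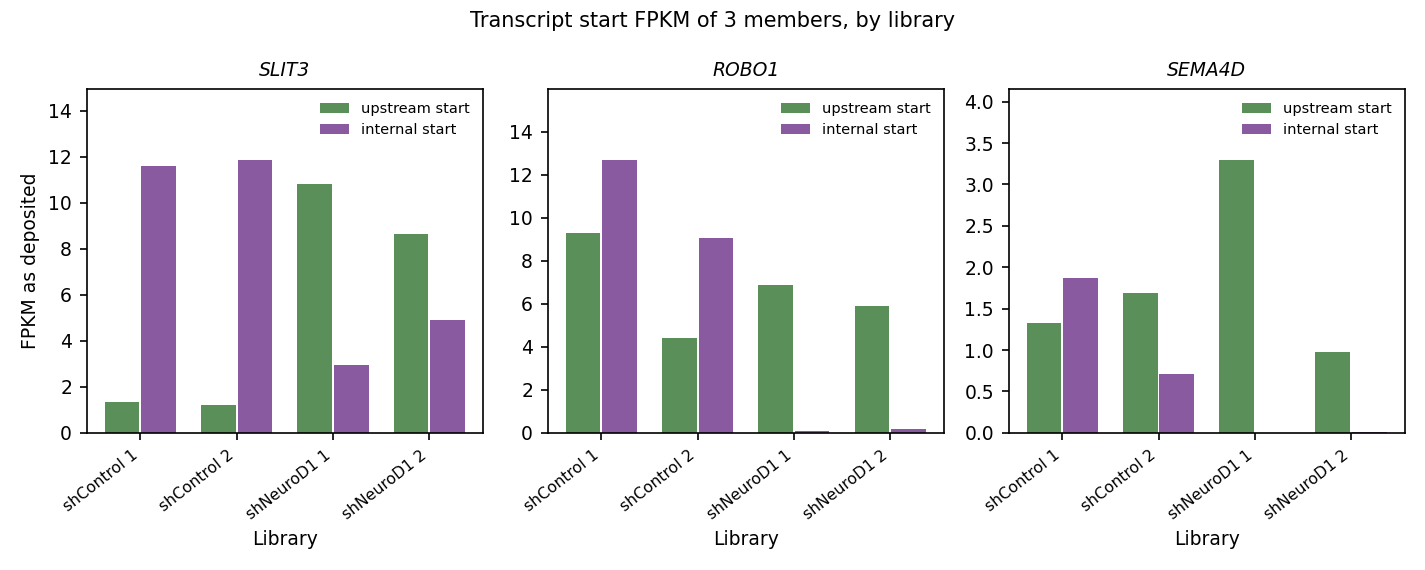
FPKM as deposited of the upstream start (green) and the internal start (purple) of SLIT3, ROBO1 and SEMA4D in each of the 4 libraries, 1 bar a library. In SLIT3 the upstream start went from 1.35 and 1.20 to 10.8 and 8.65 FPKM, and in ROBO1 the internal start went from 12.7 and 9.08 to 0.0964 and 0.162 FPKM.

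Promoter windows of 300 bases from RefSeq (GRCh38.p14), with 250 bases before the annotated start, were found for 58 of the 68 members. Several members have more than 1 window, which gave 90 windows. Each was searched on both strands for the E-box CAGATG, read as CATCTG on the other strand, and for the palindromic E-boxes CAGCTG and CACGTG. The first pair of motifs is of the kind bound by NEUROD1 and related factors, and the last by MYC family factors. CAGATG was in 8.89% of the member windows and 14.7% of all 35116 windows, CAGCTG in 18.9% and 17.9%, and CACGTG in 4.44% and 7.26%. Of 12 higher members with a window, 2 held CAGATG (SEMA3B and SEMA4A) and 5 held CAGCTG. Of all 58 members with a window, 5 held CAGATG and 15 held CAGCTG. These counts are per gene, and a gene with more windows has more places for a match. They cannot be set against the shares of windows, and no share per gene over all genes was taken. Neither lower member held any of the 3. The 250 bases upstream are shown for 4 members with a RefSeq start within 1 base of a listed start. NRP2 is shown as the largest fall, SLIT3 as the upstream start that rose, and EPHA8 and SEMA3B as members with a motif, which is in capitals.
NRP2, chr2:205682251-205682500, plus strand: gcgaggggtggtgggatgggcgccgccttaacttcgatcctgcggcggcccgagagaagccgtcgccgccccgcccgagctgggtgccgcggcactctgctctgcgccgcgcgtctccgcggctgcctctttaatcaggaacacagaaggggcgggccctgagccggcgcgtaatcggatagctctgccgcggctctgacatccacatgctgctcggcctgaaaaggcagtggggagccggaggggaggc
SLIT3, chr5:169301140-169301389, minus strand: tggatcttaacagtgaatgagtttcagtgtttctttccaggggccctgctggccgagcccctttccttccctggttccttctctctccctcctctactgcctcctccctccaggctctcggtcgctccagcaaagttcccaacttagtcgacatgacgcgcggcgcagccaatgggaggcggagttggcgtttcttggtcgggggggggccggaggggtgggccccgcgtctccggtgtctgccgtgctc
EPHA8, chr1:22563239-22563488, plus strand: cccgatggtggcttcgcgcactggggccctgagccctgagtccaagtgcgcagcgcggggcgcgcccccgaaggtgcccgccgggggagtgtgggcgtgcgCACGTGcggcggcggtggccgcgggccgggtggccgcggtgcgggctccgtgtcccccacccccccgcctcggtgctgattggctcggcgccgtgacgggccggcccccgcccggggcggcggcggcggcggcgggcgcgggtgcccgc
SEMA3B, chr3:50272869-50273118, plus strand: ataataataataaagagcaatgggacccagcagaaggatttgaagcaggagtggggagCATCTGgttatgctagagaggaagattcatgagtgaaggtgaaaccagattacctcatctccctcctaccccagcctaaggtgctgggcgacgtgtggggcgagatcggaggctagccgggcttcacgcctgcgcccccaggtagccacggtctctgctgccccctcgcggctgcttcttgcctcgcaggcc
NRP2 and SLIT3 held no match in these bases, so their sequences have no capitals. EPHA8 held CACGTG, and SEMA3B held CATCTG, the reverse complement of CAGATG. The SEMA3B start beside this window was listed at no more than 0.130 FPKM in any library.

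Some members are neighbours in the genome. SEMA3E, SEMA3A and SEMA3D lie within 1824 kb on chromosome 7, with no other tested gene in between. SEMA3A and SEMA3D rose, and SEMA3E had 0 and 1 counts in shControl, against 5 and 7 in shNeuroD1. On chromosome 1, EFNA4, EFNA3, EFNA1 and SEMA4A lie within 1114 kb, where 3 of 38 other tested genes rose past both thresholds and none fell, with a median log2 fold change of 0.09. On chromosome 3, PLXNB1, SEMA3F and SEMA3B lie within 1874 kb, where 6 of 54 other tested genes rose past both thresholds and none fell, with a median of 0.08. Over all genes tested, 8.79% rose and 5.14% fell past both thresholds. Other neighbouring members did not rise together. EPHA8 rose past both thresholds, and EPHB2 beside it fell by the adjusted p alone. ROBO1 fell by the adjusted p alone, and ROBO2 did not pass. Near EFNB3 and NTN1, 5 of 33 other tested genes rose past both thresholds and 1 fell.

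Below the count filter were 8 members, at 0 to 9 counts a library. EPHA4, a receptor for ephrins of both classes, had 7 and 5 counts in shControl and 0 in both shNeuroD1 libraries. With 3 counts over the group as the limit that a count of 0 allows, the ratio of shControl to shNeuroD1 was 3.98. That ratio takes the shControl counts as free of error, so it is not a lower limit on the change. The adjusted p of EPHA4 in an edgeR fit with no filter was 0.0403. SEMA3E had a ratio of 12.1 between group totals, with an exact 95% interval from 1.79 to 516.0 that covers counting error only, and an adjusted p of 0.0787 in that fit. EPHA1, EPHA3, EPHB1, EPHB4, NTN5 and SEMA3C overlapped between groups.

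Genes that act downstream of guidance receptors, and other guidance cues and co-receptors, were counted from lists that share no gene with the families above. Of 67 tested intracellular effectors, 8 rose (11.9%, beside 8.79% of all genes) and 2 fell (2.99%, beside 5.14%) past both thresholds, with a median log2 fold change of 0.06. ARHGEF28, a guanine nucleotide exchange factor, had 87 and 102 counts in shControl, against 1293 and 1302 in shNeuroD1 (log2 fold change 3.79). SRGAP3, a GTPase-activating protein of the SLIT-ROBO pathway, had 58 and 106 counts and then 785 and 826 (log2 fold change 3.30). ARHGEF28 and SRGAP3, both among the 8, were known from earlier results when the list was written. The share of effectors that rose therefore cannot be read against that of all genes. Of 58 tested other cues and co-receptors, 11 rose (19.0%, beside 8.79% of all genes) and 5 fell (8.62%, beside 5.14%), with a median of 0.07. This list was also written with earlier results of these data known, so its shares cannot be read against those of all genes either. The largest changes there were falls. NGFR, the low-affinity neurotrophin receptor and a co-receptor for myelin inhibitors, went from 1269 and 1374 to 69 and 61 counts (log2 fold change -4.33). FLRT2, a ligand of UNC5 receptors, went from 261 and 319 to 57 and 49 counts (log2 fold change -2.44). DRAXIN, a secreted repellent that binds DCC and netrin, went from 1228 and 1421 to 253 and 308 counts (log2 fold change -2.23).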

How the data were processed

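RNAseq of poly(A) RNA was measured in 4 IMR-32 libraries. The authors deposited whole-number read counts per Ensembl gene, made with HTSeq 0.6.1 after cutadapt 1.9.1 and HISAT2 2.0.1 on hg38, per the submitters' processing notes; the strand setting was not given in the sources used here. The authors also deposited FPKM values of transcript starts, ends and splicing events per library, from a tool not given there. Groups and replicate numbers came from the titles. Symbols, GRCh38 coordinates and exon lengths came from gene tables and GENCODE.

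Counts were filtered by filterByExpr (minimum count 10), scaled by TMM and tested by the two-sided quasi-likelihood F test of edgeR 4.0.16 in R 4.3.3, with Benjamini-Hochberg adjustment over all genes. The script was tested on simulated data. SE is the log2 fold change divided by the square root of F. CPM uses TMM-scaled library sizes. FPKM of a gene was summed over its starts. Alternatives were other scalings, filters, DESeq2 1.42.0, glmTreat, limma 3.58.1 on FPKM, the replicate number as a block, and leaving out each library.

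The members and lists were chosen with earlier results of these data known, and no p was adjusted over a list alone. Genes named are NEUROD1, members past both thresholds, the most counted member of each family, members under the count filter, and the 3 largest changes past both thresholds with at least 1 CPM in each further list, of which 1 gene is not reported here. Other members and the neighbours and overlapping genes were named after their values were seen. Intervals cover counting error only, and floors cover that of a count of 0 alone. No column was left unused.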

Additional observations from a re-analysis of the deposited data

Results flagged for a closer look

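The splicing events of the deposited FPKM tables entered no comparison. Of the events of members other than transcript starts, 1 was at 1 FPKM or more in both shNeuroD1 libraries and was listed in neither shControl library. It is a skipped-exon event of UNC5C, at 2.85 and 2.17 FPKM in shNeuroD1, in a gene whose counts also rose. In the other direction, 2 events of SLIT2 were listed in both shControl libraries alone, each at 1.03 and 1.01 FPKM. These tables list an event only above 0 FPKM, and none of these differences was tested.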

How the results depend on the processing

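Counts of lower members past both thresholds (2) were 1 in DESeq2, glmTreat and both limma fits on FPKM, and 1 to 2 when a library was left out. EFNB2 was lost in DESeq2 and in 3 of those fits, and it was not fitted on FPKM. Higher members (14) were 5 in glmTreat, 2 in limma on log2(FPKM + 1) and 3 on log2(FPKM + 0.1), where 33 members were fitted, and 12 to 14 without a library. By the adjusted p alone, lower members (11) were 6 in DESeq2 and 1 in both limma fits, and 5 to 9 without a library, 6 without shControl replicate 1 and 5 without shControl replicate 2. Higher members (27) were 4 and 3 in the limma fits. The members' median log2 fold change (0.25) was 0.36 under library size alone, which moved the median of all genes to 0.12, 0.22 and 0.27 in the limma fits, and 0.22 to 0.28 without a library.

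Effectors lower (2) were 1 in glmTreat and 0 in limma with either pseudocount, and higher effectors (8) were 2 in both limma fits. Other cues lower (5) were 3 in glmTreat and both limma fits, and higher (11) were 3 in both limma fits. Of the genes named by rule, SLIT3 turned to -0.0226 without shNeuroD1 replicate 1 and was at 0.0504 without shNeuroD1 replicate 2, and SEMA6D turned to -0.37 and -0.39 in the limma fits. The cause of these differences was not tested. In limma, ROBO1 stood at -1.20 and -1.30 with adjusted p of 0.0902 and 0.0933.

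Libraries with the same replicate number showed little shared deviation, with a correlation of deviations of 0.0158. That value cannot show whether they were prepared together. The replicate block gave 14 higher and 2 lower members past both thresholds. The 3 members whose main start share moved were 2 at a minimum of 2 FPKM, without SEMA4D. They were 4 at 20 points, an alternative chosen after seeing the data that adds PLXNB1. In leave-one-out fits the lone library is assumed to vary like the other group. Depth limited the low members, with an SE of 0.598 on the log2 scale for NTN1, at 3 to 11 counts a library.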
